A study of Mus musculus with 12 samples.

Results

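The genes described here were 47 genes of DNA replication and S phase, taken by name from a list: each name stood on a single row of the deposited tables, so that all 47 were found among 31340 gene rows. They fall into 10 roles: origin licensing with 4 genes, the MCM2-7 helicase with 6, helicase activation with 5, polymerases and primase with 8, the sliding clamp and its loaders with 7, single-strand binding with 3, Okazaki fragment maturation with 2, nucleotide supply with 5, chromatin assembly and histone mRNA with 4, and S phase transcription and checkpoint with 3.

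RNA was sequenced from bone marrow cells of WT mice that had been sorted as hematopoietic stem cells (HSCs), in 12 libraries that fall into 4 groups of 3. Ctrl mice carry no treatment in the labels. IR mice received ionizing radiation, by the study's methods gamma rays to the whole body, and Ab_IR and L_IR mice received radiation together with a treatment that the labels abbreviate as Ab or L without spelling it out, and no group had Ab or L alone. The protocol text places the sort 3 days after IR. According to the study's methods, the HSC gate took lineage-negative cells that carry Sca-1 and c-Kit and lack Flt3 and CD34. Whether the 3 libraries of a group came from separate mice or pools is not stated, so the p-values below measure the spread between these libraries, which may be technical.

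Before S phase, the origin recognition complex, CDC6 and CDT1 load the MCM2-7 ring onto DNA in an inactive form, a step called licensing. CDC45 and the GINS complex then convert the ring into a running helicase, primase and DNA polymerase alpha lay down primers, and the polymerases delta and epsilon extend them, held on DNA by the PCNA ring that the RFC complex loads. Most of these genes are transcribed as cells approach S phase, under E2F factors. HSCs in normal marrow are known to be mostly quiescent, whereas the progenitors that arise from them divide often.

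Promoter sequences from RefSeq (GRCm38.p6), which span an annotated start and reach further before it than after it, were matched by gene symbol for 40 of the 47 genes. They were searched on both strands for the E2F letters TTTCCCGC and TTTGGCGC, for CCAAT and for TTTGAA, the letters of the CHR element of late cell cycle genes. The E2F letters stood in the promoters of 11 of the 40 genes (27.5%), against 1.80% of the 27025 genes in the table. CCAAT stood in 26 of 40 (65.0%) against 41.1% of all genes, and TTTGAA in 6 of 40 (15.0%) against 20.2%. The E2F letters were held by 7 of the 19 promoters of genes that fell in IR against Ctrl, by 4 of the 20 of genes not past the threshold, and not by that of Rrm2, which rose. Such a match is a description of letters, not a site of binding, and its absence says nothing about a factor. The stretches below lie upstream of the annotated start and show both kinds of promoter for genes on which the results turn. Capitals mark the E2F or CCAAT letters on either strand (ATTGG and GCGCCAAA are CCAAT and TTTGGCGC read on the other strand).
Mcm6, chr1:128359731-128359830, minus strand: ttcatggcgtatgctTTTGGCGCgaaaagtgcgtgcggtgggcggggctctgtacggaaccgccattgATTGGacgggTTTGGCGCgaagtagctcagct
Mcm5, chr8:75109337-75109436, plus strand: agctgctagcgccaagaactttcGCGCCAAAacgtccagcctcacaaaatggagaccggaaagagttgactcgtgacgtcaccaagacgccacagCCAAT
Pola1, chrX:93632231-93632330, minus strand: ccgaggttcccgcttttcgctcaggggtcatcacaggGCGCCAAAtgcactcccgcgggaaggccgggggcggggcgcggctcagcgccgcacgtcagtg
Slbp, chr5:33652600-33652699, minus strand: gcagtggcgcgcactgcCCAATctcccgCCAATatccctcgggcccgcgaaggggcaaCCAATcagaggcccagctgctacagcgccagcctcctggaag
Rrm2, chr12:24708129-24708228, plus strand: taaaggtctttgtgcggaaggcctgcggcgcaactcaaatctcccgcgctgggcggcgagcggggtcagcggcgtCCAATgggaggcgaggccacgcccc
Counted from the annotated start, the E2F letters of Mcm6 began at bases -110 and -47, with CCAAT between them on the other strand. Those of Mcm5 began at base -149 and those of Pola1 at base -138, both on the other strand. Slbp held CCAAT 3 times and no E2F letters, and Rrm2 held CCAAT once in the stretch shown. The promoter of Pcna, not shown, held CCAAT once on the other strand, beginning at base -87, and no E2F letters.

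The deposited values carry no named unit and were read as FPKM, from the way they behave; if so they are per length and can be compared between genes. The depth of the libraries is unknown. Defining HSC genes were at or near 0 in libraries labelled as HSCs: Mecom (0.04 to 0.25 FPKM), Fgd5 (0 to 0.22) and Hoxb5 (0 to 0.07) were hardly detected, and 6 of 9 HSC markers stayed under 2 FPKM in every library, while Mpo, a granule enzyme of neutrophil progenitors, reached 2859 to 3432 FPKM. Of the genes of the gate, Ly6a (Sca-1) stood at 53.7 to 61.5 FPKM in IR and 25.9 to 45.8 in the other groups. Kit stood at 6.7 to 7.0 in IR and 17.4 to 25.45 in the other groups. Of the 9 HSC markers 3 (Mecom, Meis1 and Kit) were lower in each IR library than in every other library, and 1 (Ly6a) was higher. Other markers moved with the groups. All 12 erythroid markers were lower in each IR library than in each of the other 9 libraries, none of them at 0, and their summed level was 3171 to 3776 FPKM in Ctrl, 558 to 566 in IR, 3302 to 3455 in Ab_IR and 1687 to 1741 in L_IR. The summed level of 6 mast cell and basophil markers was 581 to 664 in Ctrl, 206 to 214 in IR, 776 to 827 in Ab_IR and 481 to 505 in L_IR, and that of 11 neutrophil markers was 11082 to 13015, 16898 to 17161, 12174 to 12753 and 9018 to 9227. Of the 11 neutrophil markers, 7 were higher in each IR library than in every other library. The others, Mpo, Elane, Prtn3 and Camp, were not. Of 10 megakaryocyte and platelet markers, 9 were lower in each IR library than in every other library and 1 was at 0 in a library, with sums of 69.1 to 80.2 FPKM in Ctrl, 16 to 18.7 in IR, 158 to 160.3 in Ab_IR and 98 to 104 in L_IR. Of 10 monocyte and macrophage markers, 7 were lower in each IR library than in every other library, with sums of 269 to 291, 115 to 117, 225 to 238 and 216 to 229 FPKM in the same order. The sums of 9 B and plasma cell markers (575 to 680.5, 801 to 826, 1021 to 1105 and 1385 to 1410) and of 6 T cell markers (14.6 to 15.3, 9.7 to 10.9, 16.6 to 19.3 and 25.1 to 25.3) were highest in L_IR. Immunoglobulin genes took 9.0% to 11.1% of all FPKM in Ctrl, 17.2% to 18% in IR, 13.5% to 14.3% in Ab_IR and 21.9% to 22.6% in L_IR. Transcripts of heart muscle summed to 121 to 154 FPKM in the IR libraries and 2 Ctrl libraries but to 0.87 to 1.24 in Ctrl replicate 1 and in the Ab_IR and L_IR libraries, so that this split cannot be told apart from the group in a comparison of IR with Ab_IR or L_IR alone. Ctrl replicate 1 also had 44.1% of its rows at 0, against 24.7% to 27.3% in the others. The part of these differences in the results below was not tested, and in bulk samples fewer cells of a type cannot be told apart from less RNA per cell.

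All 47 genes were detected in every library, between 1.57 FPKM (Dscc1) and 278 FPKM (Pcna). By the mean over 12 libraries, 6 genes reached 100 FPKM or more, namely Pcna, Rrm2, Mcm3, Mcm5, Mcm7 and Mcm6, another 23 lay from 20 to under 100 FPKM and 18 below 20. Summed over the 47 genes, the level was 2103 to 2247 FPKM in Ctrl, 1892 to 1904 in IR, 2105 to 2217 in Ab_IR and 2004 to 2053 in L_IR. In these sums the IR libraries were the lowest, the L_IR libraries lay between IR and the rest, and Ctrl and Ab_IR overlapped. The totals over all genes differed too, with group means of 361653 FPKM for Ctrl, 372855 for IR, 397234 for Ab_IR and 397267 for L_IR. As a share of these totals the 47 genes took 0.565% to 0.652% in Ctrl, 0.505% to 0.513% in IR, 0.520% to 0.564% in Ab_IR and 0.504% to 0.517% in L_IR. By share IR and L_IR overlapped, and Ctrl lay above all other groups.

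**Figure D1:**
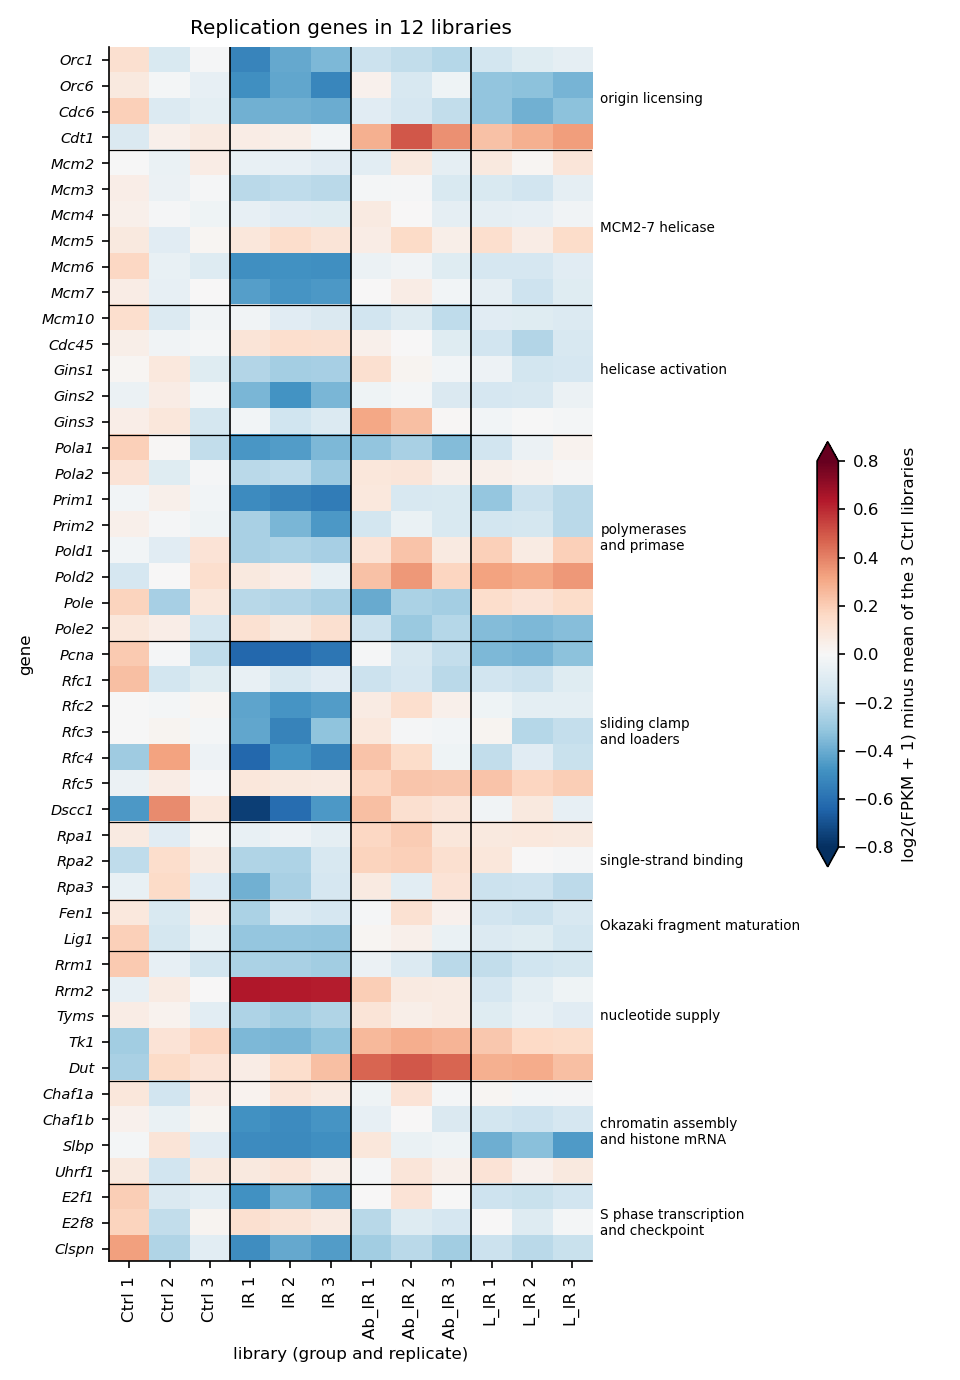
Heat map of the 47 genes (rows, by role) in the 12 libraries (columns, by group and replicate). Color gives log2(FPKM + 1) minus the mean of the 3 Ctrl libraries, blue for lower and red for higher, with the scale ending at 0.8 on either side. Most rows are blue in the 3 IR columns, with Rrm2 the one deep red row there, and Ctrl replicate 1 stands off from the other Ctrl columns for Dscc1, Tk1, Dut and Clspn.

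Irradiation against no irradiation was the first comparison. At 3 days, 23 of the 47 genes fell and 1 rose in IR against Ctrl at an adjusted p under 0.05. The fall was widest for Pcna, the sliding clamp (by 35.1% of the mean FPKM), Rfc4 (33.4%), Prim1 (32.1%), Slbp (30.1%) and Chaf1b of a histone chaperone (30.1%), and the gene that rose was Rrm2, the regulated subunit of ribonucleotide reductase, by 55.6%. Over all 12072 genes tested, 25.5% fell and 17.5% rose. The median log2 fold change was -0.26 over the 47 genes and -0.046 over all genes tested. None of the 47 changed by more than 2-fold on the log2(FPKM + 1) scale at an adjusted or an unadjusted p under 0.05 in limma, whereas 7.60% of all genes did so at the adjusted p. At an unadjusted p under 0.05, 27 genes were lower and 1 was higher (30% and 21.3% of all genes). Without Ctrl replicate 1, 28 genes fell and 3 rose (32.5% and 25.9% of all genes), the added ones being Mcm5, Cdc45, Dscc1, Rpa2, Rpa3, Rrm1 and Tk1. With any 1 IR library left out 13 or 14 genes passed, and 17.1% to 17.2% of all genes fell and 11% to 11.2% rose. With immunoglobulin genes taken out of the totals 13 fell and 4 rose (18.8% and 23.8% of all genes). Of the 24 calls 14 were kept there, and those of Cdc6, Mcm3, Gins1, Pola1, Pola2, Pold1, Rfc4, Lig1, Tyms and Clspn were lost. In each of 16 alternatives, among them leaving out each of the 6 libraries, 13 calls were kept, namely the falls of Orc1, Orc6, Mcm6, Mcm7, Gins2, Prim1, Prim2, Pcna, Rfc2, Rfc3, Chaf1b and Slbp and the rise of Rrm2.

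The next comparison asked what Ab added to irradiation. In Ab_IR against IR, 34 of the 47 genes rose and 4 fell. Dscc1, a subunit of a PCNA loader, had the largest log2 fold change (0.76), followed by Rfc4 (0.66), the thymidine kinase gene Tk1 (0.62), Rfc2 (0.52), Slbp (0.50) and Pcna (0.50). The 4 genes that fell were Rrm2, Pole2, E2f8 and Cdc45. Among all 12067 genes tested, 39.4% rose and 29.4% fell, and 7.57% passed a 2-fold change on the log2(FPKM + 1) scale, which none of the 47 did. On that scale low genes are understated: with a pseudocount of 0.1 the log2 fold change of Dscc1 was 1.02, past 2-fold. The median log2 fold change was 0.28 over the 47 genes and 0.061 over all genes. In a fit over all 12 libraries with the heart transcript split as a term, 21 rose and 7 fell, against 36% and 27.6% of all genes. That term is set apart from the groups by Ctrl replicate 1 alone. One fit over the 12 libraries without the term kept 36 of the 38 calls (31.6% of all genes higher and 24.2% lower). With the term 25 of the 38 calls kept their direction, 12 were lost, Pcna, Lig1, E2f1 and Rpa1 among them, and that of Clspn turned from a rise to a fall. With immunoglobulin genes taken out 35 of the 38 were kept, those of Mcm3, Rfc5 and Rrm1 being lost (34.7% of all genes higher and 32.6% lower). In each of the 16 alternatives 18 rises and 3 falls were kept, those of Orc6, Cdt1, Mcm6, Mcm7, Gins1, Gins2, Prim1, Pold1, Rfc2, Rfc3, Rfc4, Dscc1, Rpa2, Tyms, Tk1, Dut, Chaf1b and Slbp upwards and those of Pole2, Rrm2 and E2f8 downwards.

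In L_IR against IR, the same question for L, 33 of the 47 genes rose and 4 fell, the 4 again being Rrm2, Pole2, Cdc45 and E2f8. Dscc1 (0.60), Tk1 (0.52), Pold1 (0.40), Rfc4 (0.39) and Rfc2 (0.38) had the largest log2 fold changes among the genes that rose. Over all 12163 genes tested, 40.8% rose, 26.0% fell and 6.22% passed a 2-fold change on the log2(FPKM + 1) scale, which none of the 47 did. The median log2 fold change was 0.17 over the 47 genes and 0.073 over all genes. These 3 comparisons share the IR libraries, so that a value far off in IR enters each of them. With the heart transcript split as a term the split of calls was 14 higher and 9 lower, against 34% and 22.8% of all genes: 18 of the 37 calls kept their direction, 17 were lost, Pcna, Mcm6, Orc1, Pole and Slbp among them, and those of Rrm1 and Clspn turned from rises to falls. In one fit over all 12 libraries 28 of the 37 were kept, where 29.3% of all genes were higher and 18.1% lower. With a trend against gene length taken out the split was 25 higher and 7 lower, against 32.4% and 33.7% of all genes. Taking immunoglobulin genes out kept 36 of the 37, that of E2f8 being lost, and 6 were added, Cdc6, Mcm4, Mcm5, Gins3, Rpa3 and Uhrf1 (48.9% of all genes higher and 18.9% lower). In each of the 16 alternatives 12 rises (Cdt1, Mcm7, Gins2, Prim1, Pold1, Pold2, Rfc2, Rfc4, Dscc1, Rpa2, Tk1 and Chaf1b) and 3 falls (Cdc45, Pole2 and Rrm2) were kept.

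Directly between the treated groups, 16 genes were higher and 2 lower in Ab_IR than in L_IR. Slbp (0.40), Orc6 (0.30), Rfc4 (0.27) and Pcna (0.24) had the largest positive log2 fold changes, and the 2 lower genes were the polymerase catalytic subunits Pole (-0.44) and Pola1 (-0.25). Of all 12194 genes tested, 18.2% were higher, 19.8% lower and 0.533% past a 2-fold change. The median log2 fold change was 0.10 over the 47 genes and 0.0063 over all genes. With immunoglobulin genes taken out of the totals, the split turned to 2 higher and 12 lower (7.08% and 36.3% of all genes), while the median over all genes moved to -0.11 and that over the 47 genes to -0.045. The median of the 47 genes thus lay above that of all genes in both scalings, while 4 of the 18 calls were kept (Orc6, Slbp, Pole and Pola1). In one fit over all 12 libraries 7 of the 18 were kept and 11 lost, those of Pcna, Rfc4 and Pola1 among them. In that fit 8.41% of all genes were higher and 11.8% lower. With any 1 L_IR library left out 10 or 11 genes passed, and 12.7% to 14.2% of all genes were higher and 14.1% to 15.2% lower. The calls of Orc6, Slbp and Pole were kept in each of the 16 alternatives.

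Against the unirradiated group, none of the 47 genes passed in Ab_IR against Ctrl in limma; at an unadjusted p under 0.05, 4 were higher and 4 lower (9.45% and 11.4% of all genes). Of all 12134 genes tested, 1.45% were higher, 0.651% lower and 0.923% past a 2-fold change. For Pcna the log2 fold change was -0.11 (95% confidence interval -0.40 to 0.18) and for Mcm6 -0.058 (95% confidence interval -0.28 to 0.16), both spanning 0. Without Ctrl replicate 1, 1 gene was higher (3.56% of all genes). In one fit over all 12 libraries 5 genes were higher and 3 lower, where 8.55% of all genes were higher and 10.8% lower. With the split of heart transcripts as a term 9 were higher and 14 lower, against 29.3% and 29.6% of all genes. In L_IR against Ctrl, 3 genes were lower, Slbp (log2 fold change -0.39, SE 0.074, adjusted p = 0.0247), Orc6 (log2 fold change -0.34, SE 0.064, adjusted p = 0.0245) and Pole2 (log2 fold change -0.35, SE 0.080, adjusted p = 0.0464), and none was higher. At an unadjusted p under 0.05, 9 were lower and 3 higher (12.7% and 12% of all genes). Of all 12251 genes tested, 4.76% were higher, 4.08% lower and 2.65% past a 2-fold change. These 3 calls were all lost without Ctrl replicate 2 and without any 1 of the L_IR libraries, while 6 genes were lower and 2 higher without Ctrl replicate 1 (9.95% and 10.4% of all genes), and 4 lower and 1 higher without Ctrl replicate 3 (3.25% and 4.1%). In one fit over all 12 libraries 3 genes were higher and 8 lower (10.8% and 11.1% of all genes). The heart transcript split as a term gave 7 higher and 22 lower (27.6% and 26.7% of all genes). With immunoglobulin genes taken out 8 genes were higher and none lower (17.2% and 2.07% of all genes), where the median log2 fold change was 0.10 over the 47 genes and 0.18 over all genes. With a length trend taken out 2 were higher and 2 lower (5.65% and 4.57% of all genes).

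**Figure D2:**
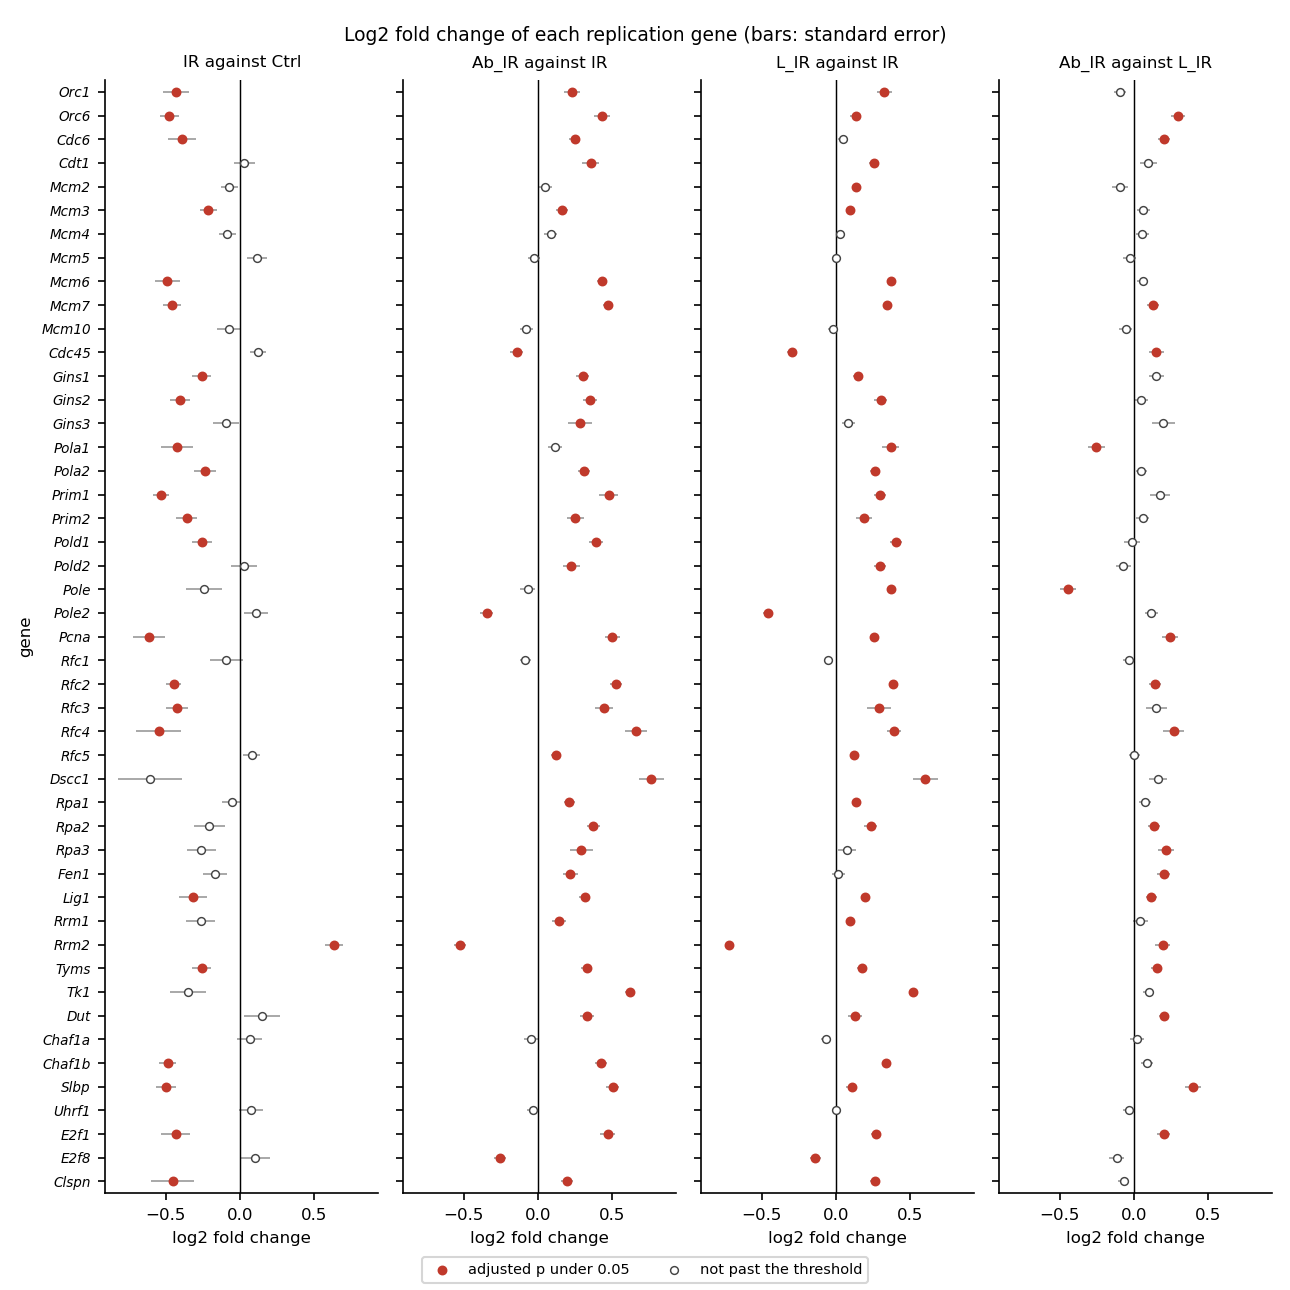
Log2 fold change on the log2(FPKM + 1) scale (x axis) of each of the 47 genes (y axis, by role) in 4 comparisons, with the standard error as a bar. Filled red points passed an adjusted p under 0.05 and open points did not. In IR against Ctrl 23 red points lie left of 0 and Rrm2 lies right of it; in the next 2 panels 34 and 33 red points lie right of 0 and 4 lie left, and in the last panel 16 lie right and 2 left.

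Among the origin licensing genes, Orc1, Orc6 and Cdc6 fell in IR against Ctrl and Cdt1 did not pass. Orc6, the smallest subunit of the origin recognition complex (ENSMUSG00000031697.12, chr8:85299632-85308278, plus strand), measured 27.5, 25.7 and 24.8 FPKM in the Ctrl libraries, 18.2, 19.3 and 17.8 in IR, 26.6, 23.7 and 25.4 in Ab_IR and 20.6, 20.4 and 19.8 in L_IR. The IR libraries lay below those of every other group, the L_IR libraries lay closest above them, and Ctrl and Ab_IR overlapped. Orc6 fell in IR against Ctrl (log2 fold change -0.47, SE 0.066, adjusted p = 0.00209), rose in Ab_IR against IR (log2 fold change 0.43, SE 0.052, adjusted p = 0.000249) and was higher in Ab_IR than in L_IR (log2 fold change 0.30, SE 0.049, adjusted p = 0.00346). Cdt1, which brings the MCM ring to the origin and is destroyed once S phase begins, followed another order, with 39.3, 43.9 and 44.9 FPKM in the Ctrl libraries, 44.5, 43.98 and 41.9 in IR, 52.2, 60.5 and 55.2 in Ab_IR and 50.4, 52.03 and 54.01 in L_IR. Ctrl and IR overlapped, and each Ab_IR and L_IR library lay above both. Cdt1 rose in Ab_IR against IR (log2 fold change 0.36, SE 0.058, adjusted p = 0.00112) and in L_IR against IR (log2 fold change 0.26, SE 0.036, adjusted p = 0.000631); against Ctrl the log2 fold changes were 0.38 (adjusted p = 0.103) and 0.28 (adjusted p = 0.0658). Both passed as rises in one fit over all libraries and with the heart transcript split as a term, and that in L_IR also with immunoglobulin genes or a length trend taken out and without Ctrl replicate 1. Orc1, the ATPase of the complex, and Cdc6 fell in IR against Ctrl by 28.1% and 24.8% of the mean FPKM, and in L_IR against IR Orc1 rose (0.33) while Cdc6 did not pass (0.045, adjusted p = 0.201). With the heart transcript split as a term the rise of Cdc6 in Ab_IR against IR was lost (-0.041, adjusted p = 0.611) and Cdc6 fell in L_IR against IR (-0.24, adjusted p = 0.00993). In the latter comparison Cdc6 rose with quantile normalization (0.086, adjusted p = 0.0304) and with immunoglobulin genes taken out (0.13, adjusted p = 0.00777), so that its direction there depends on the setting.

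The 6 MCM genes encode the subunits of a single ring, and 3 of them fell in IR against Ctrl. Mcm6 (ENSMUSG00000026355.11, chr1:128331590-128359664, minus strand) measured 153, 130.5 and 126 FPKM in the Ctrl libraries, 96.4, 96.7 and 96.7 in IR, 132, 133 and 127 in Ab_IR and 124, 124 and 128 in L_IR. All IR libraries lay at 96.4 to 96.7 FPKM, below each library of the other groups, and Ctrl replicate 1 was the highest of all. Mcm6 fell in IR against Ctrl (log2 fold change -0.49, SE 0.085, adjusted p = 0.0048) and rose in Ab_IR against IR (log2 fold change 0.43, SE 0.032, adjusted p = 2.09e-05) and in L_IR against IR (log2 fold change 0.37, SE 0.022, adjusted p = 8.79e-06). Mcm7 was likewise lowest in IR, with 145, 133 and 139.5 FPKM in the Ctrl libraries, 102, 99.8 and 101 in IR, 139, 145 and 137 in Ab_IR and 132, 124 and 129.7 in L_IR. The IR libraries again stood alone at the bottom, and L_IR lay just under Ctrl and Ab_IR. Its log2 fold changes were -0.46 in IR against Ctrl (adjusted p = 0.00171), 0.47 in Ab_IR against IR (adjusted p = 1.74e-05) and 0.35 in L_IR against IR (adjusted p = 4.98e-05). Mcm3, the most abundant of the 6 by its mean, measured 148, 138 and 141 FPKM in the Ctrl libraries, 123, 124 and 122 in IR, 141, 141 and 131 in Ab_IR and 131, 128 and 135 in L_IR. It fell in IR against Ctrl (log2 fold change -0.21, SE 0.058, adjusted p = 0.0264). This fall was lost without any 1 IR library, with median log2 ratio scaling and with immunoglobulin genes or a length trend taken out. It was also lost with the replicate number as a block. Mcm2, Mcm4 and Mcm5 did not pass in IR against Ctrl, with log2 fold changes of -0.073, -0.084 and 0.11. Mcm5 passed as a rise in that comparison with immunoglobulin genes taken out, with the heart transcript split and without Ctrl replicate 1. Mcm4 passed as a fall with quantile normalization. Mcm2 rose in L_IR against IR (log2 fold change 0.14, SE 0.028, adjusted p = 0.00403), a call lost with median log2 ratio scaling, in one fit and with the heart transcript split. Mcm4 and Mcm5 did not pass there, but rose with immunoglobulin genes taken out (0.11 and 0.085). Mcm5, whose promoter holds the E2F letters as that of Mcm6 does, was at 121 ± 7.23 FPKM in Ctrl and 131 ± 2.18 in IR (mean ± SD, n = 3), while Mcm6 was at 136 ± 14.2 and 96.6 ± 0.206. The lowest level in each group was that of Mcm2, at 56.2 ± 2.18 FPKM in Ctrl and 53.3 ± 0.607 in IR.

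**Figure D3:**
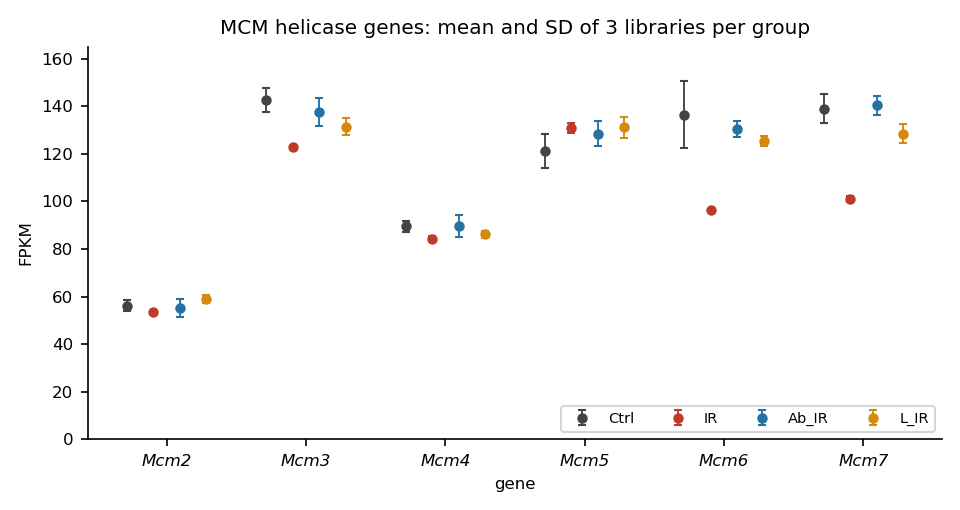
FPKM (y axis) of the 6 MCM genes (x axis) in each group, as mean and SD of 3 libraries. For Mcm6 and Mcm7 the IR mean (96.6 and 101.0 FPKM) lies below the other 3 groups, whereas for Mcm2, Mcm4 and Mcm5 the 4 groups lie close together.

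Of the genes that switch the helicase on, Gins1 and Gins2 of the GINS complex fell in IR against Ctrl, and Mcm10, Cdc45 and Gins3 did not pass. Gins2 measured 16.9, 18.2 and 17.3 FPKM in the Ctrl libraries, 13.3, 12.2 and 13.3 in IR, 17.1, 17.2 and 16.03 in Ab_IR and 15.8, 15.9 and 16.9 in L_IR. The IR libraries were the lowest, and the other groups overlapped. Gins2 fell in IR against Ctrl (log2 fold change -0.40, SE 0.065, adjusted p = 0.0037) and rose in Ab_IR against IR (log2 fold change 0.35, SE 0.049, adjusted p = 0.000511) and L_IR against IR (log2 fold change 0.30, SE 0.044, adjusted p = 0.000798); 67.3% of its exon bases also lie in exons of Gse1 on the opposite strand. Cdc45, the helicase cofactor, ran the other way, with 31.3, 29.7 and 29.9 FPKM in the Ctrl libraries, 32.7, 33.4 and 33.3 in IR, 31.2, 30.4 and 28.3 in Ab_IR and 27.2, 25.7 and 27.7 in L_IR. Here the IR libraries were the highest and the L_IR libraries the lowest. Cdc45 fell in Ab_IR against IR (log2 fold change -0.14, SE 0.043, adjusted p = 0.0212) and in L_IR against IR (log2 fold change -0.29, SE 0.033, adjusted p = 0.00023), and its value in IR against Ctrl did not pass (0.12, adjusted p = 0.113). The fall in Ab_IR was lost without IR replicate 2 and without IR replicate 3. In IR against Ctrl, Cdc45 passed as a rise with median log2 ratio scaling and with immunoglobulin genes or a length trend taken out. It also did so with the heart transcript split as a term and without Ctrl replicate 1.

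Among the polymerase and primase genes, Pola1, Pola2, Prim1, Prim2 and Pold1 fell in IR against Ctrl, while Pold2, Pole and Pole2 did not pass. Prim1, the catalytic subunit of primase (ENSMUSG00000025395.14, chr10:128015168-128030037, plus strand), measured 23.3, 24.5 and 23.4 FPKM in the Ctrl libraries, 16.5, 16.1 and 15.8 in IR, 25.2, 21.6 and 21.7 in Ab_IR and 18.99, 20.96 and 20.3 in L_IR. The IR libraries lay lowest, then the L_IR libraries, and Ctrl and Ab_IR overlapped. Prim1 fell in IR against Ctrl (log2 fold change -0.53, SE 0.056, adjusted p = 0.000683) and rose in Ab_IR against IR (log2 fold change 0.48, SE 0.062, adjusted p = 0.00037) and L_IR against IR (log2 fold change 0.30, SE 0.041, adjusted p = 0.000572). Pold1, the catalytic subunit of polymerase delta and the highest of these genes, measured 36.1, 34.4 and 39.8 FPKM in the Ctrl libraries, 30.5, 30.8 and 30.4 in IR, 39.7, 43.1 and 38.7 in Ab_IR and 42.03, 38.5 and 41.99 in L_IR. IR was again the lowest group, and Ctrl, Ab_IR and L_IR overlapped in pairs. Pold1 fell in IR against Ctrl (log2 fold change -0.26, SE 0.069, adjusted p = 0.0255) and rose in both treated groups, with log2 fold changes of 0.39 and 0.40. The fall was lost without any 1 IR library, with median log2 ratio scaling and with immunoglobulin genes or a length trend taken out. It was also lost with the replicate number as a block.

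Among the subunits of polymerase epsilon, the leading strand enzyme, Pole and Pole2 went apart. Its catalytic subunit Pole measured 11.1, 7.88 and 10.3 FPKM in the Ctrl libraries, 8.13, 8.06 and 7.91 in IR, 7.06, 7.95 and 7.84 in Ab_IR and 10.8, 10.5 and 10.8 in L_IR. Its second subunit Pole2 measured 16.1, 15.6 and 13.4 FPKM in the Ctrl libraries, 16.4, 15.9 and 16.5 in IR, 13.2, 12 and 12.7 in Ab_IR and 11.6, 11.5 and 11.6 in L_IR. For Pole the L_IR libraries lay above IR and Ab_IR, with Ctrl spread across both levels; for Pole2 the L_IR libraries were the lowest and the IR libraries among the highest. In L_IR against IR, Pole rose (log2 fold change 0.37, SE 0.031, adjusted p = 4.9e-05) and Pole2 fell (log2 fold change -0.46, SE 0.028, adjusted p = 1.15e-05). In Ab_IR against IR, Pole2 fell (log2 fold change -0.34, SE 0.044, adjusted p = 0.00032) and Pole did not pass (-0.070, adjusted p = 0.259). The other subunits, Pole3 and Pole4, are among the further genes counted below. Pole3 fell in IR against Ctrl (-0.43, adjusted p = 0.00603) and rose in Ab_IR and L_IR against IR (0.58 and 0.40). Pole4 rose in Ab_IR against IR (0.41) and passed neither in IR against Ctrl (-0.21) nor in L_IR against IR (-0.035). Pole was lower in Ab_IR than in L_IR (log2 fold change -0.44, SE 0.051, adjusted p = 0.000787), as was Pola1, the catalytic subunit of polymerase alpha (log2 fold change -0.25, SE 0.056, adjusted p = 0.0114).

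Pcna, the sliding clamp (ENSMUSG00000027342.14, chr2:132249162-132253314, minus strand), had the highest mean of the 47 genes over the 12 libraries, although Rrm2 lay above it in IR. Pcna measured 278, 239 and 209 FPKM in the Ctrl libraries, 155, 156 and 161 in IR, 239, 219.8 and 210.3 in Ab_IR and 187, 186 and 191 in L_IR. The 3 IR libraries lay lowest, the L_IR libraries next, and Ctrl and Ab_IR overlapped, with Ctrl spread over 209 to 278 FPKM. Pcna fell in IR against Ctrl (log2 fold change -0.61, SE 0.11, adjusted p = 0.00546), rose in Ab_IR against IR (log2 fold change 0.50, SE 0.051, adjusted p = 9.7e-05) and in L_IR against IR (log2 fold change 0.26, SE 0.024, adjusted p = 9.28e-05), and was higher in Ab_IR than in L_IR (log2 fold change 0.24, SE 0.051, adjusted p = 0.00922). Pcna, with the heart transcript split as a term, passed neither in Ab_IR against IR (0.19, adjusted p = 0.125) nor in L_IR against IR, where the sign turned (-0.054, adjusted p = 0.673). The difference between Ab_IR and L_IR did not pass with immunoglobulin genes taken out (0.099, adjusted p = 0.18) or in one fit over all libraries (adjusted p = 0.0778). A pseudogene row, Pcna-ps2, averaged 6.33 FPKM, and how reads were shared between the copies is not stated. Dscc1, part of an alternative clamp loader and the least abundant of the 47 genes, measured 2.15, 4.61 and 3.58 FPKM in the Ctrl libraries, 1.57, 1.84 and 2.14 in IR, 4.11, 3.73 and 3.63 in Ab_IR and 3.24, 3.57 and 3.13 in L_IR. Ctrl replicate 1 lay close to the IR libraries and the other Ctrl libraries well above them. Its value in IR against Ctrl did not pass (log2 fold change -0.61, SE 0.21, adjusted p = 0.0618), while it rose in Ab_IR against IR (log2 fold change 0.76, SE 0.083, adjusted p = 0.000143), where the ratio of mean FPKM was 2.07. Of the 5 genes of the RFC clamp loader, Rfc2, Rfc3 and Rfc4 fell in IR against Ctrl, with log2 fold changes of -0.45, -0.42 and -0.55, and rose in both treated groups against IR. Rfc1, its large subunit, and Rfc5 did not pass in IR against Ctrl (-0.091 and 0.080), though Rfc5 passed as a rise with immunoglobulin genes taken out. Rfc5 rose in Ab_IR and in L_IR against IR, by 0.12 on the log2 scale in each, and Rfc1 passed in neither. Rfc4 shares 12.7% of its exon bases with Eif4a2 on the opposite strand, which averaged 77.4 FPKM against 34.5 for Rfc4.

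None of the 3 subunits of RPA, which coats single-stranded DNA at the fork, passed in IR against Ctrl, where the unadjusted limma p was under 0.05 for Rpa3 alone. Rpa1, the large DNA-binding subunit, measured 44.3, 39.6 and 42.7 FPKM in the Ctrl libraries, 40.5, 41.01 and 40.1 in IR, 47.5, 48.8 and 45.04 in Ab_IR and 44.6, 44.7 and 44.5 in L_IR. Rpa2, the subunit phosphorylated at damaged forks, measured 27.97, 35.8 and 33.99 FPKM in the Ctrl libraries, 27.2, 27.2 and 29.6 in IR, 36.8, 37.1 and 35.5 in Ab_IR and 34.6, 32.5 and 32.2 in L_IR. Rpa3, the smallest subunit, measured 20.2, 23.7 and 19.8 FPKM in the Ctrl libraries, 16, 17.6 and 19.2 in IR, 22.3, 19.9 and 22.96 in Ab_IR and 18.7, 18.8 and 18.2 in L_IR. The Ab_IR libraries lay above IR for all of them, and the L_IR libraries lay above IR for Rpa1 and Rpa2. All 3 rose in Ab_IR against IR, with log2 fold changes of 0.21, 0.37 and 0.29 (adjusted p = 0.00207, 0.000207 and 0.0109). In L_IR against IR, Rpa1 (0.14) and Rpa2 (0.23) rose and Rpa3 did not pass (0.077, adjusted p = 0.299).

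Lig1, the ligase that seals Okazaki fragments, measured 85.6, 67.8 and 72.1 FPKM in the Ctrl libraries, 60.2, 60.1 and 59.9 in IR, 75.6, 76.8 and 72.2 in Ab_IR and 69.4, 69.9 and 67.6 in L_IR. The IR libraries stood between 59.9 and 60.2 FPKM, below all others, and Ctrl replicate 1 was the highest. Lig1 fell in IR against Ctrl (log2 fold change -0.31, SE 0.094, adjusted p = 0.0366) and rose in Ab_IR against IR (log2 fold change 0.31, SE 0.035, adjusted p = 0.00015) and L_IR against IR (log2 fold change 0.20, SE 0.022, adjusted p = 0.000238). The fall was lost without any 1 IR library, without Ctrl replicate 3, with no filter and with median log2 ratio scaling. It was also lost with immunoglobulin genes or a length trend taken out and with the replicate number as a block. The heart transcript split as a term left neither rise of Lig1 past the threshold and turned the sign in L_IR against IR (-0.091, adjusted p = 0.247). Fen1, the flap nuclease that trims the fragments, did not pass in IR against Ctrl (log2 fold change -0.17, SE 0.080, adjusted p = 0.139) and rose in Ab_IR against IR (log2 fold change 0.22, SE 0.053, adjusted p = 0.0076). That rise was lost with the heart transcript split as a term and with a length trend taken out. Of the exon bases of Fen1 78.8% lie in exons of Gm10143 on the opposite strand, a row that averaged 3.99 FPKM against 67.5 for Fen1.

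Rrm2, the subunit of ribonucleotide reductase whose level follows S phase (ENSMUSG00000020649.11, chr12:24708241-24714146, plus strand), was the one gene of the 47 to rise in IR against Ctrl with the settings used throughout. It measured 118, 129 and 124 FPKM in the Ctrl libraries, 193, 193 and 192 in IR, 142, 130.2 and 129 in Ab_IR and 113, 117 and 121 in L_IR. The IR libraries lay at 192 to 193 FPKM, far above every other library, and the remaining groups lay close together. Rrm2 rose in IR against Ctrl (log2 fold change 0.63, SE 0.062, adjusted p = 0.000495) and fell in Ab_IR against IR (log2 fold change -0.52, SE 0.043, adjusted p = 3.27e-05) and L_IR against IR (log2 fold change -0.72, SE 0.029, adjusted p = 1.62e-06). Its partner subunit Rrm1 did not pass in IR against Ctrl (log2 fold change -0.26, SE 0.10, adjusted p = 0.0731) and rose in both treated groups against IR, with log2 fold changes of 0.14 and 0.10. Both values of Rrm1 turned negative, to -0.17 (adjusted p = 0.0839) and -0.22 (adjusted p = 0.0407), with the heart transcript split as a term. Neither rise passed with median log2 ratio scaling or in one fit over all libraries, that in Ab_IR was also lost without any 1 of the IR libraries, without Ab_IR replicate 1 or 2, with no filter and with immunoglobulin genes taken out, and that in L_IR with a length trend taken out. Tk1, thymidine kinase of the salvage route, measured 15.5, 20.5 and 21.5 FPKM in the Ctrl libraries, 14.6, 14.5 and 14.99 in IR, 22.9, 23.4 and 23.1 in Ab_IR and 22.2, 21.3 and 21.1 in L_IR. IR was the lowest group, Ctrl replicate 1 lay just above it, and each Ab_IR and L_IR library except those of L_IR replicates 2 and 3 lay above all Ctrl libraries. Tk1 did not pass in IR against Ctrl (log2 fold change -0.35, SE 0.12, adjusted p = 0.061) and rose in Ab_IR against IR (log2 fold change 0.62, SE 0.034, adjusted p = 4.85e-06) and in L_IR against IR (log2 fold change 0.52, SE 0.031, adjusted p = 1e-05). Tyms, which makes thymidylate, fell in IR against Ctrl (log2 fold change -0.26, SE 0.064, adjusted p = 0.0196). That fall was lost without any 1 IR library, with immunoglobulin genes taken out and with the replicate number as a block. Dut, which removes dUTP from the nucleotide pool, did not pass in IR against Ctrl (0.15, adjusted p = 0.374) and rose in Ab_IR against IR (log2 fold change 0.33, SE 0.050, adjusted p = 0.000758).

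Of the chromatin genes, Chaf1b of the CAF-1 histone chaperone fell in IR against Ctrl (log2 fold change -0.49, SE 0.057, adjusted p = 0.00105), while its partner Chaf1a did not pass (0.064, adjusted p = 0.557); 52.5% of the exon bases of Chaf1a lie in exons of Ubxn6 on the opposite strand. Slbp, which binds the stem loop at the end of histone mRNA (ENSMUSG00000004642.13, chr5:33634952-33652574, minus strand), measured 40.5, 44.3 and 38.5 FPKM in the Ctrl libraries, 28.7, 28.6 and 28.9 in IR, 43.8, 39.6 and 40.0 in Ab_IR and 31.03, 32.3 and 29.7 in L_IR. The IR libraries stood between 28.6 and 28.9 FPKM, the L_IR libraries lay just above them, and Ctrl and Ab_IR overlapped well above both. Slbp fell in IR against Ctrl (log2 fold change -0.50, SE 0.068, adjusted p = 0.00187), rose in Ab_IR against IR (log2 fold change 0.50, SE 0.045, adjusted p = 5.34e-05) and in L_IR against IR (log2 fold change 0.11, SE 0.034, adjusted p = 0.0291), and was higher in Ab_IR than in L_IR (log2 fold change 0.40, SE 0.052, adjusted p = 0.0014). Its rise in L_IR was lost without any 1 of the IR libraries, without L_IR replicate 1 or 2, with no filter and with median log2 ratio scaling. That rise was also lost in one fit, with the heart transcript split, with a length trend taken out and with the replicate number as a block. Uhrf1, which keeps DNA methylation in step with replication, measured 90.2, 76.6 and 89.98 FPKM in the Ctrl libraries, 90.2, 91.4 and 88.3 in IR, 84.8, 91.2 and 87.8 in Ab_IR and 92, 87.5 and 90.3 in L_IR. The 4 groups overlapped, and with the settings used throughout Uhrf1 did not pass in any of the 6 comparisons. It was higher in L_IR than in IR (0.081) with immunoglobulin genes taken out, and then lower in Ab_IR than in L_IR (-0.18). With a length trend taken out it was lower in both Ab_IR and L_IR than in IR (-0.11 and -0.073).

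E2f1, an activator of S phase genes, measured 23.8, 19.03 and 19.5 FPKM in the Ctrl libraries, 14.5, 15.7 and 15.1 in IR, 20.7, 22.4 and 20.6 in Ab_IR and 18.3, 18.2 and 18.5 in L_IR. IR lay lowest, L_IR next, and Ctrl and Ab_IR overlapped. E2f1 fell in IR against Ctrl (log2 fold change -0.43, SE 0.10, adjusted p = 0.0127) and rose in Ab_IR against IR (log2 fold change 0.47, SE 0.048, adjusted p = 0.000104) and L_IR against IR (log2 fold change 0.27, SE 0.034, adjusted p = 0.000395). The fall was lost without IR replicate 1 and without IR replicate 3. With the heart transcript split as a term neither rise of E2f1 passed, and the sign turned in L_IR against IR (-0.027, adjusted p = 0.784). E2f8, an atypical E2F that represses such genes, measured 36.5, 27.98 and 32.7 FPKM in the Ctrl libraries, 35.3, 34.7 and 33.9 in IR, 27.5, 29.9 and 29.3 in Ab_IR and 32.3, 29.9 and 31.9 in L_IR. The IR libraries lay above the Ab_IR and L_IR libraries, and Ctrl overlapped all groups. E2f8 fell in Ab_IR against IR (log2 fold change -0.25, SE 0.042, adjusted p = 0.00119) and in L_IR against IR (log2 fold change -0.14, SE 0.036, adjusted p = 0.0124), the latter lost with quantile normalization, with immunoglobulin genes taken out and in one fit. Clspn, the adaptor that links stalled forks to the kinase CHK1, measured 22.1, 14.6 and 16.4 FPKM in the Ctrl libraries, 12.1, 12.9 and 12.5 in IR, 14.2, 14.9 and 14.2 in Ab_IR and 15.4, 14.9 and 15.3 in L_IR. IR was the lowest group, and Ctrl replicate 1 lay far above all other libraries. Clspn fell in IR against Ctrl (log2 fold change -0.45, SE 0.14, adjusted p = 0.0451) and rose in Ab_IR against IR (log2 fold change 0.19, SE 0.041, adjusted p = 0.00395) and L_IR against IR (log2 fold change 0.26, SE 0.033, adjusted p = 0.000388). The fall was lost without any 1 IR library, without Ctrl replicate 3, with no filter and with quantile normalization or median log2 ratio scaling. It was also lost with immunoglobulin genes taken out and with the replicate number as a block. Both rises of Clspn became, with the heart transcript split as a term, falls past the threshold, with log2 fold changes of -0.29 (adjusted p = 0.01) and -0.22 (adjusted p = 0.0394), and in one fit over all libraries neither passed.

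**Figure D4:**
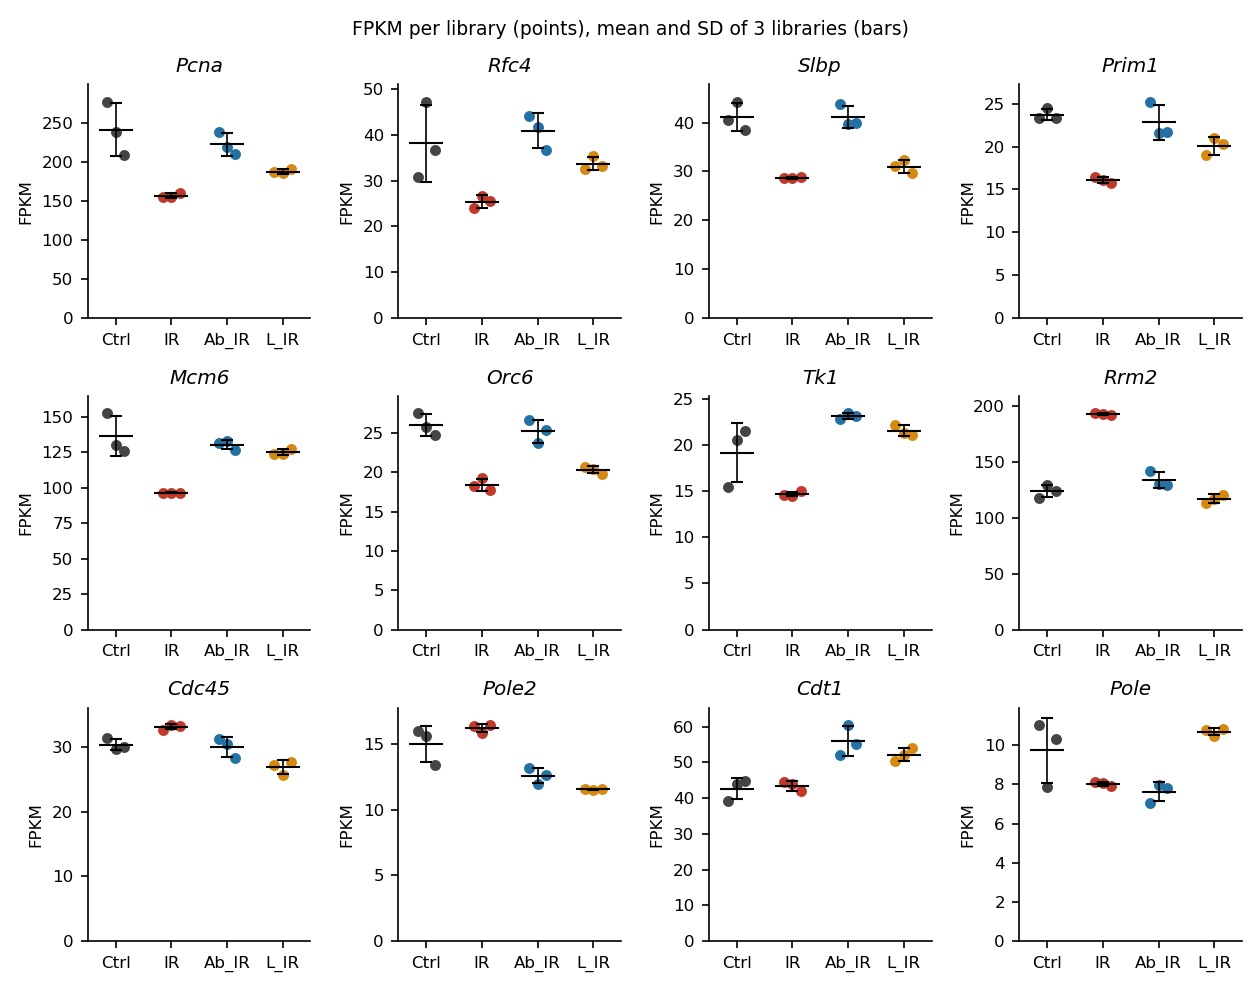
FPKM (y axes, from 0) of 12 of the 47 genes in the 4 groups (x axes), each point a library and each bar the mean with the SD of 3 libraries. Pcna, Rfc4, Slbp, Prim1, Mcm6, Orc6 and Tk1 are lowest in IR, Rrm2 is highest in IR at 192 to 193 FPKM, Cdc45 and Pole2 are lowest in L_IR, Cdt1 lies above Ctrl and IR in Ab_IR and L_IR, and Pole is higher in L_IR than in IR and Ab_IR.

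A further 57 genes of replication and S phase, not among the 47, were counted as a list. In IR against Ctrl 18 of the 57 fell and 3 rose, with a median log2 fold change of -0.15, where 25.5% of all genes fell and 17.5% rose. The widest fall was that of Orc5, a subunit of the origin recognition complex (log2 fold change -0.93, SE 0.077, adjusted p = 0.000269), followed by Dtl, an adaptor of the ligase that degrades CDT1 (log2 fold change -0.69, SE 0.070, adjusted p = 0.000606), and the 3 that rose were Cdc25a (0.54), Mcmbp (0.40) and Chtf8 (0.30). In Ab_IR against IR 27 of the 57 rose and 15 fell (median 0.11), against 39.4% and 29.4% of all genes. In L_IR against IR 21 rose and 17 fell (median 0.0028), against 40.8% and 26.0%. In Ab_IR against L_IR 17 of 56 tested were higher and 8 lower, against 18.2% and 19.8%. For 25 genes of G2 and M phase, 2 fell and 5 rose in IR against Ctrl, 13 fell and 4 rose in Ab_IR against IR, and 17 fell and 2 rose in L_IR against IR, beside the same shares of all genes. Whether these lists differ from the 47 genes or from all genes was not tested.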

How the data were processed

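Poly(A) RNA of sorted bone marrow HSCs was sequenced in 12 libraries, 3 per group, grouped by the titles in the labels. The submitters' processing notes name fastp, HISAT2 and StringTie with GRCm38 and mm10, while the study's methods name RSEM and a DESeq2 test; the annotation is not given in the sources used here. The files deposited by the authors hold 1 value per gene and library without a named unit. They were read as FPKM, fragments scaled to gene length and library size by the authors, since the values sum differently per library and behave as per-length values. Steps that would mark single reads were not seen among the low values, so depth is unknown and no counting error can be given. The kit keeps strand, but whether counting used it is not stated: 17 of the 47 genes share exon bases with another gene row, 8 of them 10% or more of their own. Positions come from GENCODE M21 (GRCm38).

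As FPKM are not counts, limma 3.58.1 in R 4.3.3 (lmFit, eBayes with a trend) was run on log2(FPKM + 1) in the 6 libraries of each pair of groups. A gene entered if 3 or more of those libraries had 1 FPKM or more. All 47 genes passed this filter in each comparison. Fold changes on this scale understate those of low genes. P-values were adjusted by Benjamini-Hochberg over all genes tested, and an adjusted p under 0.05 was the threshold; the study's rule, which adds a fold change above 2, was the second. The code was tested on simulated data. Alternatives were a pseudocount of 0.1, no filter, quantile normalization, median log2 ratio scaling, immunoglobulin genes (305 rows) taken out and no trend in limma. Others were the replicate number as a block, 1 fit over all 12 libraries, a length trend taken out, and each library left out. The heart transcript split (Nppa above 10 FPKM) was a term in a fit over all 12 libraries.

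Values in every library are given, per role, for the gene with the largest absolute change in IR against Ctrl, that with the largest in Ab_IR against IR and that with the highest mean FPKM, plus Pcna, Cdt1, Rrm2, E2f1 and Uhrf1. Values in every library of Pole and Pole2, and the genes of the further list, were chosen after their values were seen. The 47 genes and all lists were chosen with earlier results of these data known. A search of protein motifs was planned and not run, and promoters of 7 genes were not used here (Dscc1, Gins1, Gins2, Mcm4, Pole, Prim2 and Rfc2). Figures were drawn with matplotlib 3.10.9.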

Additional observations from a re-analysis of the deposited data

How the results depend on the processing

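The number of the 47 genes past the threshold stayed within 1.5 times its value under the pseudocount, filter, quantile, median scaling, trend and length alternatives. A fold change above 2 on the log2(FPKM + 1) scale left 0 genes in each comparison; with a pseudocount of 0.1, 1 gene passed it, Dscc1 in Ab_IR against IR. With 1 library left out, the count ranged from 13 to 31 in IR against Ctrl (24 with all libraries). Of all genes 11% to 25.9% were then higher and 17.1% to 32.5% lower. The count ranged from 34 to 39 in Ab_IR against IR (38), with 34.4% to 37.2% and 25.2% to 30.4% of all genes. It ranged from 34 to 37 in L_IR against IR (37), with 35.3% to 38.7% and 22.7% to 25.7%. In Ab_IR against L_IR it ranged from 10 to 19 (18), with 12.7% to 17.8% and 14.1% to 18.7%. In L_IR against Ctrl it ranged from 0 to 8 (3), with 2.02% to 10.4% and 1.23% to 9.95%. In Ab_IR against Ctrl it ranged from 0 to 1 (0), with 0.375% to 3.56% and 0.117% to 2.09%. One fit over all 12 libraries gave 7 in Ab_IR against L_IR, 11 in L_IR against Ctrl and 8 in Ab_IR against Ctrl. The heart transcript split as a term gave 23 in L_IR against IR, 29 in L_IR against Ctrl and 23 in Ab_IR against Ctrl. With immunoglobulin genes taken out, 8 passed in L_IR against Ctrl, and the median log2 fold change of all genes moved to 0.15 in L_IR against IR, 0.18 in L_IR against Ctrl and -0.11 in Ab_IR against L_IR. The cause of these shifts was not tested.

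The replicate number as a block gave 18 genes in IR against Ctrl (14.6% of all genes higher and 20.9% lower). It gave 38 in Ab_IR against IR (38.8% and 28.5%) and 35 in L_IR against IR (39.1% and 24.9%). In Ab_IR against L_IR 11 genes passed (13.3% and 15.1%). In L_IR against Ctrl (2.73% and 1.56%) and Ab_IR against Ctrl (0.775% and 0.19%) 0 genes passed. Same-numbered libraries of different groups had correlations of deviations from -0.28 to 0.24 and others from -0.27 to 0.30, so that the numbers do not pair the libraries.

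Over the 47 genes, 17 values that passed in one of the fits turned sign. With the heart transcript split these were log2 fold changes of -0.29 for Clspn (past the threshold), -0.041 for Cdc6 and -0.17 for Rrm1 in Ab_IR against IR. In L_IR against IR they were -0.24 for Cdc6, -0.22 for Rrm1 and -0.22 for Clspn, all past the threshold, and -0.0537 for Pcna, -0.0913 for Lig1 and -0.0269 for E2f1, which were not. Against Ctrl they were -0.19 for Lig1 and -0.16 for E2f1 in Ab_IR and 0.45 for Dscc1 in L_IR, all past the threshold. With immunoglobulin genes taken out they were 0.0813 for Uhrf1 in L_IR against IR and -0.14 for Rfc5 in Ab_IR against L_IR, both past the threshold, and -0.0180 for Mcm7, -0.00458 for Rpa2 and -0.0273 for Lig1 in Ab_IR against L_IR, which were not. Of the other values, 4052 kept their side of the threshold, 274 lost the threshold and 169 passed it. Unknown depth limits what can be said of low genes such as Dscc1.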
